A study of Oryza sativa with 8 samples.

Results

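The regions described here were differentially methylated regions (DMRs), stretches of DNA whose cytosine methylation differed between plants grown from low-N (LN) and high-N (HN) parent seed, that were found in both Ox1 in the HN field and WYG7 in the NN field and in neither of the other comparisons. There were 1624 of them, 6.36% of the 25546 DMRs of Ox1 in the HN field and 6.18% of the 26288 DMRs of WYG7 in the NN field. They were chosen by position alone. A DMR of Ox1 in the HN field was taken when its overlap with a DMR of WYG7 in the NN field covered at least 50% of both, and when no DMR of WYG7 in the HN field or of Ox1 in the NN field touched it by even 1 bp. Sharing, boundaries and lengths are therefore a description of the choice. The direction of the difference was not used in it.

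WYG7 (Wuyugeng7) is the japonica rice cultivar used as wild type, and Ox1 is a single line that overexpresses OsNAR2.1, the partner protein of high-affinity nitrate transporters, in the WYG7 background. The HN field received N fertilizer at 300 kg N per ha and the NN field received none. LN and HN parent seed had been harvested a generation earlier, from plants grown without N fertilizer and with 300 kg N per ha. Seed N and the parents' field treatment therefore cannot be told apart. Whole-genome bisulfite sequencing, which reads unmethylated cytosines as thymine, was done on leaf DNA of mature plants (the labels call the tissue shoot), with 8 libraries, 1 for each line, parent seed and field. The libraries behind these regions were Ox1-LN against Ox1-HN in the HN field and WYG7-LN against WYG7-HN in the NN field, so by the labels the comparisons had no library, line or field in common. The other comparisons were WYG7-LN against WYG7-HN in the HN field and Ox1-LN against Ox1-HN in the NN field. Each condition has 1 library and the deposited lists hold no methylation value per library, so no replicate error and no test across libraries can be had from them, and no p-value is given. Intervals below cover counting error over regions only, and neighbouring regions of 1 library are not independent. The lists carry no methylation level, coverage or cytosine context, so the depth behind a region is unknown, and no sequence of the plants, so the line of each list rests on its label and was not checked. If the line labels of the NN field were exchanged, the regions described here would be shared within a line and not between lines, and every direction share below would have to be read so. A DMR is called hyper here where the LN library was the more methylated one and hypo where it was the less methylated one, a reading that follows the study's methods because the lists name no control. The reading was not checked: the study's text gives both a higher and a lower overall methylation level for WYG7-LN than WYG7-HN in the NN field. If it were wrong for both lists, hyper and hypo would change places throughout. If it were wrong for 1 list only, same and opposite directions would change places. The number of plants behind a library is not given in the sources used here.

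In plants, cytosines are methylated in the CG, CHG and CHH contexts (H is A, C or T). MET1 maintains CG methylation and CMT3 CHG methylation, and small RNA-directed methylation by DRM2, together with CMT2, acts on CHH sites. Methylation over transposable elements and promoters is commonly linked to silencing, whereas CG methylation inside gene bodies is found in many expressed genes.

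Of the 25546 DMRs of Ox1 in the HN field, 9107 overlapped a DMR of WYG7 in the NN field, and 3795 did so over at least 50% of both lengths. Among these 3795, a DMR of WYG7 in the HN field alone touched 851, a DMR of Ox1 in the NN field alone touched 566, and DMRs of both touched 754. The remaining 1624 are the regions of this report, and no DMR of WYG7 in the NN field was used more than once. The share left without another list, 42.8% of the reciprocal pairs, was between 28.8% and 38.7% for the other 5 pairs of lists under the same rule.

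Most of the shared regions were hyper in both comparisons. In 975 regions (60.04%) methylation was higher in the LN library of Ox1 in the HN field and also in that of WYG7 in the NN field, and in 160 (9.85%) it was lower in both. A further 321 (19.8%) were hyper in Ox1 and hypo in WYG7, and 168 (10.3%) were hypo in Ox1 and hyper in WYG7. The direction was thus the same in 1135 of 1624 regions, or 69.9% (Wilson 95% interval from 67.6% to 72.1%), and opposite in 489. Among all 3795 reciprocal pairs of these lists, which include the 1624, it was the same in 61.1%.

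Both lists were mostly hyper, which alone makes a same direction likely. Of the shared regions, 79.8% were hyper in Ox1 in the HN field, against 75.4% of all DMRs of that list, and 70.4% were hyper in WYG7 in the NN field, against 64.5% of all DMRs of that list. If the directions had been independent given the hyper shares of the 1624 regions, 62.1% would have had the same direction. The observed share was 7.74 percentage points above this. As an odds ratio, which does not depend on the hyper shares, a region hyper in Ox1 had 2.89 times the odds of being hyper in WYG7 (95% interval from 2.25 to 3.72, counting error only).

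The other 5 pairs of lists were put through the same rule. Ox1 in the HN field shared 1213 regions with WYG7 in the HN field alone and 899 with Ox1 in the NN field alone. WYG7 in the NN field shared 1432 with WYG7 in the HN field alone and 786 with Ox1 in the NN field alone. The pair most like the one described here, which also differs in both line and field, was WYG7 in the HN field with Ox1 in the NN field, and it had 1068. The 1624 regions were thus the largest of the 6 sets, also as a share of each list: in the other sets the share was between 2.99% and 5.45%. The lists differ in length and in how many DMRs could be called, and the cause of the difference in number was not tested.

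**Figure D1:**
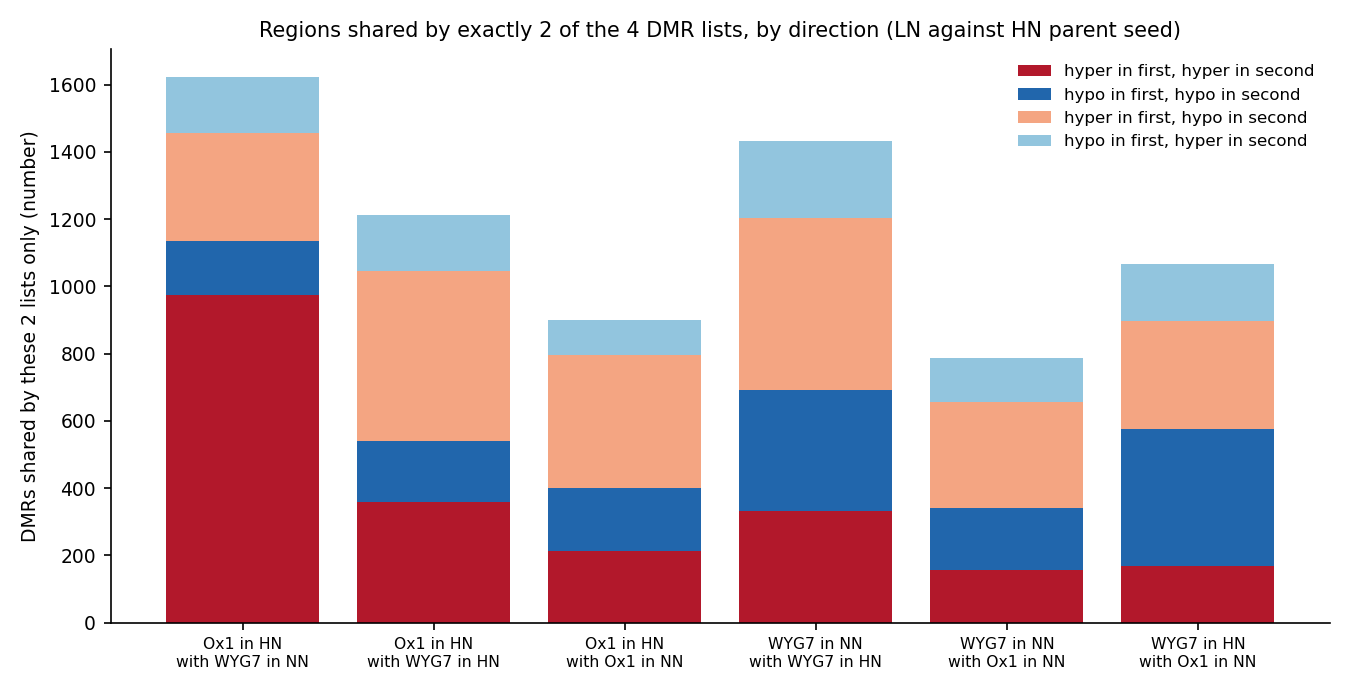
Number of regions shared by exactly 2 of the 4 DMR lists, 1 bar for each pair of lists, stacked by direction in the first and second list named under the bar (hyper: LN library more methylated). Ox1 in the HN field with WYG7 in the NN field had 1624 regions, 975 of them hyper in both, against 156 to 360 hyper in both for the other pairs. Each other pair includes a list that was mostly hypo in its shared regions, which alone lowers the number hyper in both. WYG7 in the HN field was hyper in 39.2% to 45.7% of them and Ox1 in the NN field in 31.9% to 36.5%.

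Direction agreement also differed between the pairs. The same direction was found in 44.5% of the regions that Ox1 shared with WYG7 in the HN field and in 43.4% of those that WYG7 shared with Ox1 in the NN field, with odds ratios of 0.764 (0.595 to 0.981) and 0.702 (0.522 to 0.942). Within a line, between the fields, it was 44.6% for Ox1 and 48.3% for WYG7, with odds ratios of 0.991 (0.739 to 1.33) and 1.02 (0.823 to 1.27). For WYG7 in the HN field with Ox1 in the NN field it was 54.0%, which was 2.47 points above independence, with an odds ratio of 1.26 (0.971 to 1.63). The interval of the 1624 regions, 2.25 to 3.72, overlapped none of these. Over all reciprocal pairs, with or without a DMR of another list, the 2 pairs across line as well as field were closer: the same-direction share was 61.1% for Ox1 in the HN field with WYG7 in the NN field, 6.73 points above independence, and 55.97% for WYG7 in the HN field with Ox1 in the NN field, 5.06 points above it, with 3795 and 3164 pairs. The other 4 pairs of lists lay between -1.602 and 0.310 points there. Agreement beyond independence was thus not particular to the lists described here. The intervals treat regions as independent and hold for these libraries, not for the plants of a line or field, and the difference between pairs was not tested across libraries.

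**Figure D2:**
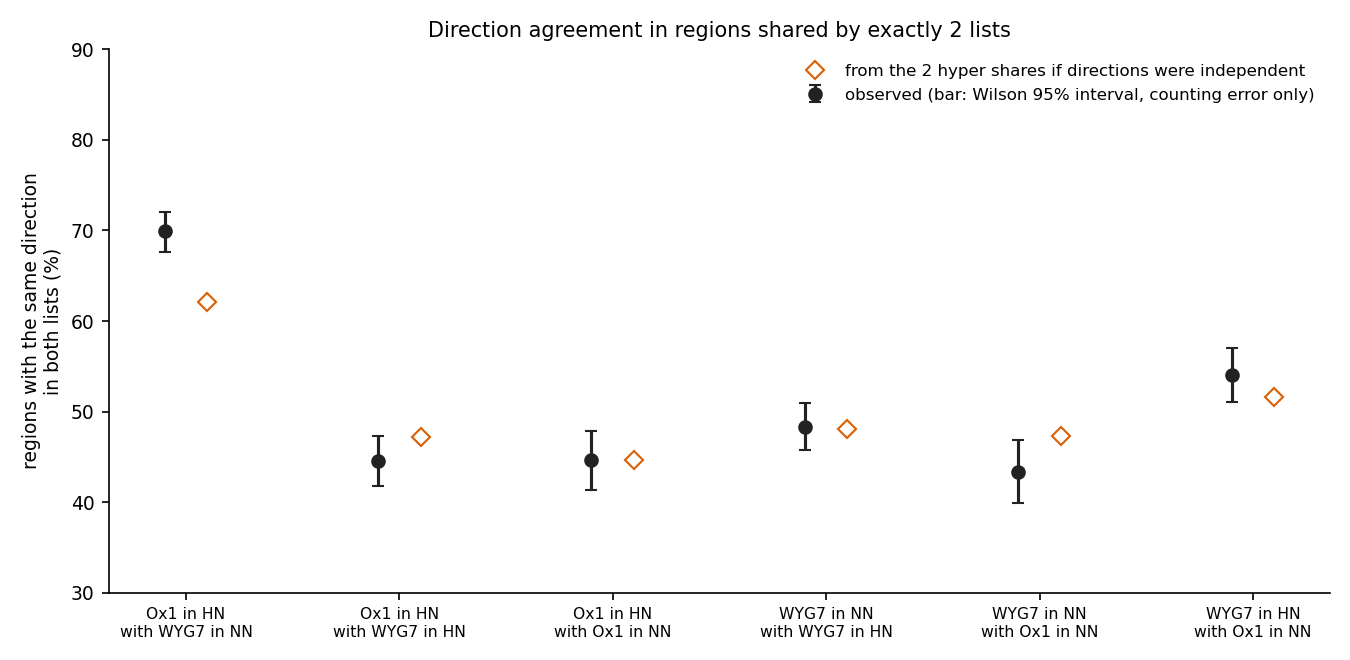
Share of regions with the same direction in both lists (%), for regions shared by exactly 2 lists, with observed shares and Wilson 95% intervals (counting error only) as filled points and, as open diamonds, the share from the hyper shares of the regions if directions were independent. For Ox1 in the HN field with WYG7 in the NN field the observed share was 69.9% and the independent share 62.1%, a gap of 7.74 points, against -3.97 to 2.47 points in the other pairs, whereas over all reciprocal pairs the gaps were 6.73 points and up to 5.06 points.

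Agreement was highest where no other list had a DMR. Reciprocal pairs of Ox1 in the HN field and WYG7 in the NN field that only a DMR of WYG7 in the HN field also touched had the same direction in 57.2% (53.9% to 60.5%), with an odds ratio of 1.61. For pairs that only a DMR of Ox1 in the NN field also touched the share was 54.2% (50.1% to 58.3%) and the odds ratio 1.34. For pairs touched by both it was 51.7% (48.2% to 55.3%), with an odds ratio of 1.14. The hyper shares differed along with it: they were 79.8% in Ox1 and 70.4% in WYG7 for the 1624 regions, against 58.8% in Ox1 and 50.5% in WYG7 where both other lists had a DMR, and the independent share was 62.1% against 50.1%.

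The agreement was also described by how well the boundaries matched. The median overlap was 185 bp, with quartiles of 139 bp and 260 bp and a range from 55 bp to 1387 bp, and the overlaps covered 351351 bp in all. The median DMR was 228 bp in Ox1 and 237.5 bp in WYG7, against 227 bp and 237 bp in the whole lists. The starts lay a median of 40 bp apart and the ends 41 bp apart. In 501 regions the Ox1 DMR lay within the WYG7 DMR, in 386 the WYG7 DMR lay within the Ox1 DMR, and 41 regions, counted in both numbers, had the same start and end in both lists.

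Regions with closely matching boundaries were more often of the same direction. Where at least 90% of both DMRs lay in the overlap, 165 of 198 regions (83.3%, from 77.5% to 87.9%) had the same direction, against 67.0% (62.6% to 71.1%) of the 469 regions with 50% to 60%. Among the 100 regions whose starts and ends both lay within 10 bp, 90 had the same direction, 82 of them hyper in both. If directions were independent, 77.4% of these would have had the same direction, a gap of 12.6 points. The odds ratio was 26.2 (6.24 to 110) and rests on 5, 5 and 8 regions in the other classes. The steps between were uneven: the share was 70.1% at 60% to 70%, 64.3% at 70% to 80% and 71.5% at 80% to 90%. Well-matched regions were also more often hyper, so that 75.4% would have been expected to have the same direction at 90% or more. The gap to independence, between 4.88 and 10.2 points over the bins, did not grow in step. The odds ratio was 2.46 (1.57 to 3.87) at 50% to 60% and 6.75 (2.74 to 16.6) at 90% or more. It was 3.55, 1.90 and 2.82 in the bins between, in order, and the intervals of all bins overlapped. By length, the same-direction share was 66.8% for overlaps under 150 bp and 75.2% for overlaps of 300 bp or more, but the independent share differed as well (59.6% and 67.2%), so that the gaps were 7.19 and 7.97 points. The odds ratios were 2.41 (1.57 to 3.70) and 3.83 (1.97 to 7.46), with 2.84 and 3.08 in the bins between. They rose with length, but their intervals overlapped.

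**Figure D3:**
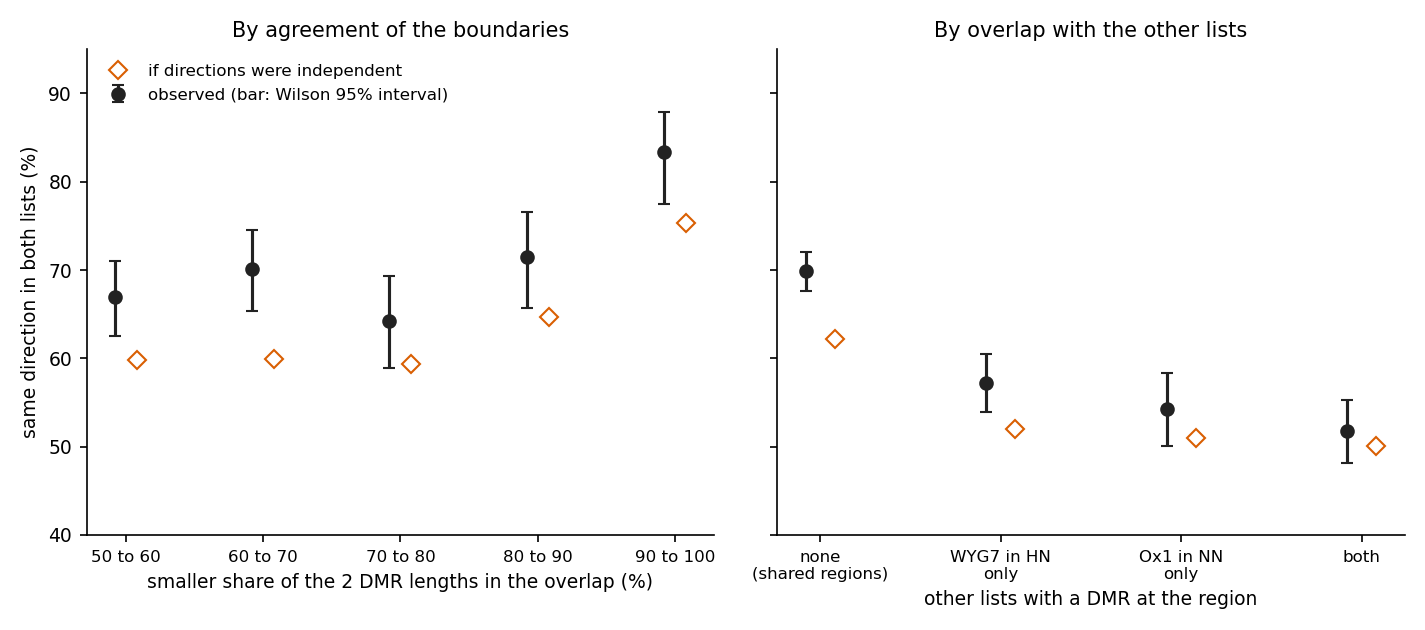
Share of reciprocal pairs of Ox1 in the HN field and WYG7 in the NN field with the same direction (%; points with Wilson 95% intervals, diamonds for independent directions), left for the 1624 shared regions by the smaller share of the 2 DMR lengths in the overlap, and right for all 3795 pairs by which other lists also had a DMR there. Agreement was 83.3% at an overlap of 90% or more, and 51.7% where both other lists had a DMR.

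At the limit of the rule, the 102 regions with 50% to 52% in the overlap had a median overlap of 144 bp and the same direction in 67.6%. The 100 regions just outside it, with 48% to 50%, had a median overlap of 152.5 bp and the same direction in 64.0%. Some regions had DMRs of the other lists close by, although the rule leaves out every region that these touch. The shares were not set against all DMRs of Ox1 in the HN field. A DMR of WYG7 in the HN field lay under 200 bp away from 170 regions (10.5%) and under 1000 bp from 514 (31.7%), and a DMR of Ox1 in the NN field from 140 (8.62%) and 419 (25.8%).

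The shared regions were spread over all 12 chromosomes. The number was highest on chromosome 4 (179 regions) and chromosome 1 (174) and lowest on chromosome 9 (94), and as a share of the DMRs of Ox1 in the HN field it stayed between 5.80% on chromosome 3 and 6.95% on chromosome 10. The same-direction share was highest on chromosome 9, at 80.9% (71.8% to 87.5%), and lowest on chromosome 5, at 60.9% (53.1% to 68.2%). It was above the independent share on 12 of 12 chromosomes, by 0.36 points on chromosome 11 up to 14.98 points on chromosome 10, and on 5 the lower bound of its interval was above the independent share. The independent share comes from the same regions, and this interval leaves out its error. The 95% interval of the odds ratio (counting error only) reached below 1 on chromosomes 5, 11 and 12 and lay above 1 on the others.

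**Figure D4:**
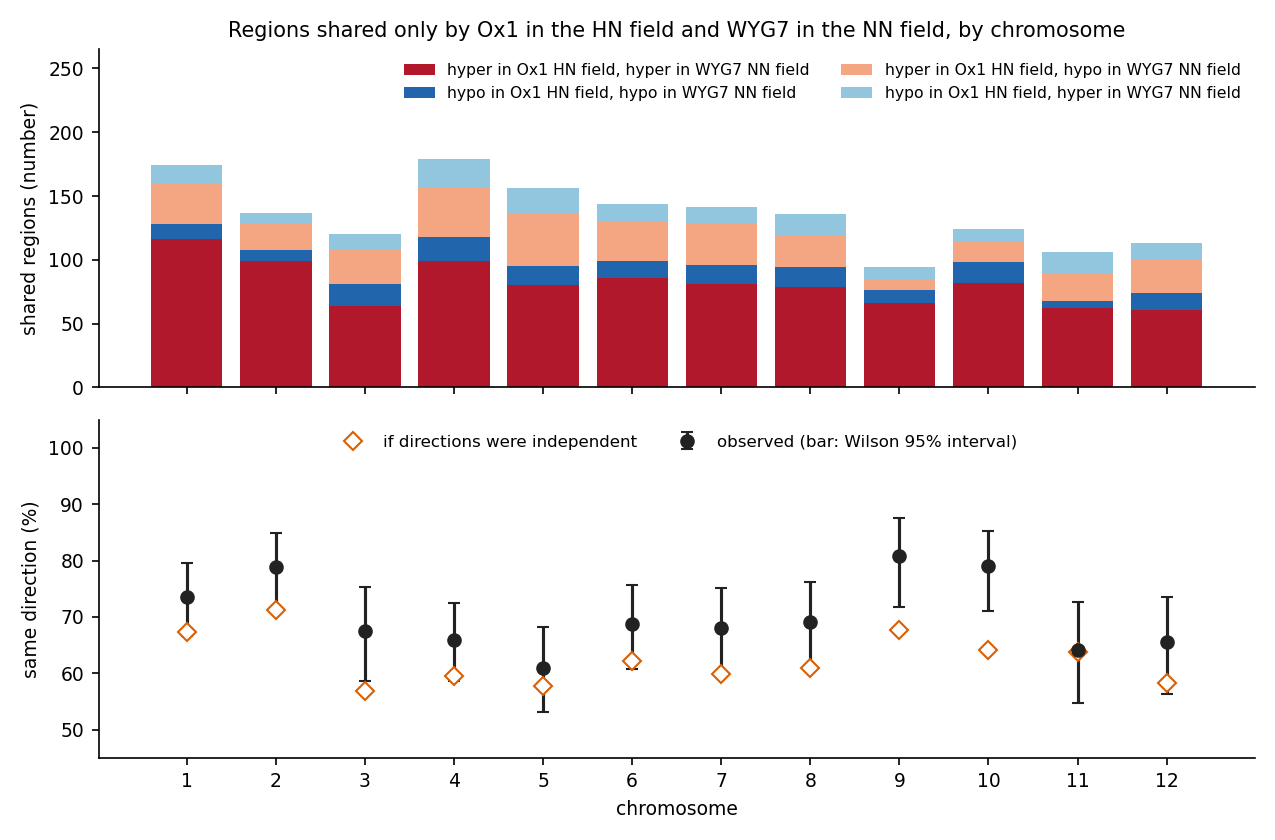
Shared regions by chromosome, with the number stacked by direction in Ox1 in the HN field and in WYG7 in the NN field (top) and the share with the same direction (%) with Wilson 95% intervals (points), and the share if directions were independent on that chromosome (diamonds; bottom). Numbers ran from 94 on chromosome 9 to 179 on chromosome 4, and the observed share was above the independent share on all 12 chromosomes.

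Over windows of 1000000 bp, the median window held 4 shared regions, 19 of 379 windows held none and 22 held at least 10. Chromosome 10 held the fullest window (positions 8000001 to 9000000, IRGSP-1.0), with 18 regions, 14 of them of the same direction and 13 hyper in both. The next were chromosome 7 from 9000001 to 10000000 with 15 regions, of which 9 had the same direction, and chromosome 4 from 6000001 to 7000000 with 14, of which 12 had. These windows were also dense in DMRs of Ox1 in the HN field, with 148, 124 and 137, and were picked for their count.

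Neighbouring shared regions lay a median of 139772 bp apart, and only 36 of 1612 neighbours were under 1000 bp apart. Of these 36, both were in the same of the 4 direction classes in 63.9%, against 41.7% of the 1474 neighbours at least 10000 bp apart and 42.0% if classes were independent. At 138 neighbours under 10000 bp apart the share was 55.1%. Close neighbours therefore tended to have the same directions, and when regions under 1000 bp apart were counted once, 1588 regions were left and 69.7% had the same direction.

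Genes were taken from the authors' tables of differentially methylated genes (DMGs), which give 1 interval per MSU locus identifier, made of the gene and its 1 kb promoter, without strand. A region counted as lying at a gene when at least 52 bp of it fell into the interval. Of the 1624 regions, 1056 (65.0%) lay at 1 or more genes, close to the 64.7% of all DMRs of Ox1 in the HN field, and 568 lay outside all listed genes. The regions touched 1069 genes, which is 7.04% of the 15176 genes of these tables. The median interval of the 1069 genes was 4448 bp, against 3813 bp for all genes of the tables, and a longer interval is more likely to be hit.

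Many of the genes were also listed for another comparison. Of the 1069 genes, 1061 were listed for both comparisons and the other 8 for Ox1 in the HN field alone of the pair. Of the 1069, 571 (53.4%) were in at least 1 of the other tables too, and 288 were in all 4 tables. The genes listed for Ox1 in the HN field and WYG7 in the NN field and for neither other comparison numbered 494 (46.2%). In the whole tables there were 1374 such genes among the 6291 common to both tables, a smaller share. Being listed elsewhere was thus less frequent for the 1069 genes than for common genes in general. The rule itself lowers it, because regions touched by a DMR of another list were left out. Of the 494 genes, 332 (67.2%) were hyper in both lists at every shared region, 33 (6.68%) hypo in both, 86 (17.4%) hyper in Ox1 and hypo in WYG7, and 38 (7.69%) hypo in Ox1 and hyper in WYG7. Over all 1069 genes the shares were near these, at 63.05%, 7.58%, 19.4% and 8.51% in the same order.

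Regions hyper in both comparisons lay at genes more often than regions hypo in both. The share at a gene was 69.2% (66.3% to 72.0%) for the 975 regions hyper in both, 64.2% for those hyper in Ox1 and hypo in WYG7, 57.1% for those hypo in Ox1 and hyper in WYG7, and 49.4% (41.7% to 57.0%) for the 160 hypo in both. Over whole lists the step was smaller: 65.9% of the hyper and 61.0% of the hypo DMRs of Ox1 in the HN field lay at a gene, and 64.4% and 62.3% of those of WYG7 in the NN field. The place within the interval differed in the same order. The centre lay under 1000 bp from an end of the interval in 47.8% of the region and gene pairs hyper in both, in 57.7% and 58.2% of those with opposite directions, and in 67.1% of those hypo in both, against 51.8% for all DMRs of Ox1 in the HN field. For the whole list of Ox1 in the HN field this share was 51.6% for hyper and 52.2% for hypo DMRs. In a short interval any centre lies that near an end, and interval length was not compared between the classes. One end of each interval is the promoter, but without strand it is not known which.

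Agreement itself was found in and outside genes. At genes 71.4% of the regions had the same direction and outside genes 67.1%, with odds ratios of 2.70 (1.93 to 3.77) and 2.93 (2.00 to 4.31).

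At 45 genes there were 2 or more shared regions, and at 29 of these all regions were of 1 class. Close neighbours were often of 1 class anyway, in 63.9% under 1000 bp apart and 55.1% under 10000 bp apart. The count at genes was not set against neighbours outside genes. The files give no gene names or functions for the loci below, which are named by the number or length of their regions. The 3 genes with 3 regions each were LOC_Os02g50510, LOC_Os01g60480 and LOC_Os04g22000. LOC_Os01g60480 (chromosome 1 of IRGSP-1.0, from 34970082 to 34975562) was hyper throughout. Its Ox1 DMRs ran from 34973242 to 34973706, from 34974169 to 34974361 and from 34974415 to 34974671, and the matching WYG7 DMRs from 34973242 to 34973939, from 34974085 to 34974281 and from 34974303 to 34974607. In all, its interval held 5 hyper-DMRs of Ox1 in the HN field and 4 of WYG7 in the NN field, no hypo-DMR, and no DMR of the other comparisons.

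LOC_Os02g50510 (chromosome 2, from 30844099 to 30851057) likewise had 4 hyper-DMRs in each list and none that was hypo. The overlaps of its shared regions were 507 bp, 121 bp and 177 bp long, and the first lay between an Ox1 DMR from 30847742 to 30848248 and a WYG7 DMR from 30847458 to 30848405. A hypo-DMR of WYG7 in the HN field lay elsewhere in its interval, so this gene was listed for 3 of the comparisons. LOC_Os04g22000 (chromosome 4, from 12454276 to 12457854) showed mixed directions. Its first region was hyper in Ox1, from 12455451 to 12455783, and hypo in WYG7, from 12455539 to 12455809, and the other 2, with overlaps of 285 bp and 113 bp, were hyper in both.

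Among the genes with 2 regions, the 7 with the largest summed overlap were LOC_Os04g16200, LOC_Os11g26250, LOC_Os06g14570, LOC_Os12g37340, LOC_Os04g47100, LOC_Os02g48260 and LOC_Os10g24730. At 5 of the 7 every region was hyper in both. In LOC_Os04g16200 (chromosome 4, from 8792260 to 8800171) the first region had the same start and end in both lists, from 8794350 to 8794600, and the other ran from 8795097 to 8795834 in Ox1 and from 8795112 to 8795834 in WYG7. In LOC_Os11g26250 the longer region ran from 15029262 to 15029841 in Ox1 and from 15029254 to 15029841 in WYG7 on chromosome 11. LOC_Os12g37340 (chromosome 12, from 22928175 to 22935273) was the gene of this group whose regions were opposite in both places: hyper in Ox1 and hypo in WYG7 from 22931104 to 22931507, and hypo in Ox1 and hyper in WYG7 from 22932162 to 22932565, with 404 bp each. Of the 10 genes, LOC_Os01g60480, LOC_Os04g16200, LOC_Os06g14570 and LOC_Os02g48260 were listed for these comparisons alone.

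The longest regions of each class were also named. The longest of all, 1387 bp and hyper in both, covered the whole Ox1 DMR on chromosome 3 from 3293000 to 3294386 and 85.0% of the WYG7 DMR from 3292845 to 3294475, at LOC_Os03g06540. The other 4 of the 5 longest regions hyper in both were between 723 bp and 782 bp long and lay at LOC_Os04g24970, LOC_Os12g15900, LOC_Os06g12480 and LOC_Os04g16200. The longest regions hypo in both were shorter. The first, 513 bp, ran from 25236863 to 25237375 on chromosome 3 at LOC_Os03g44760, where it covered 55.5% of the WYG7 DMR. The others of this class were at LOC_Os09g13860 (446 bp), LOC_Os05g24160 (429 bp) and across LOC_Os12g21730 and LOC_Os12g21734 (420 bp), and 1 of 512 bp lay outside listed genes on chromosome 12 from 6212172 to 6212683. The median overlap was 193 bp in regions hyper in both and 178 bp in regions hypo in both.

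Among regions of opposite direction, the longest that was hyper in Ox1 and hypo in WYG7 was 726 bp at LOC_Os12g30360, on chromosome 12 from 18229341 to 18230066, and covered 54.4% of the WYG7 DMR. A better matched one of 670 bp lay across LOC_Os05g17720 and LOC_Os05g17730, where the Ox1 DMR ran from 10194411 to 10195080 and the WYG7 DMR from 10194402 to 10195107 on chromosome 5. The next were at LOC_Os10g11690 (649 bp), LOC_Os07g30360 (630 bp) and LOC_Os07g47740 (614 bp). The longest that was hypo in Ox1 and hyper in WYG7 was 630 bp at LOC_Os08g22030 on chromosome 8, from 13306452 to 13307081, followed by 546 bp at LOC_Os04g23870, and the 3 after these, of 470 bp to 545 bp, lay outside listed genes. Of the 18 genes at these 20 regions, 13 were in all 4 gene tables and 4 in the tables of these comparisons alone.

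None of the 33 loci in the lists of nitrate, ammonium and amino acid transport (11 loci), N assimilation (7), DNA methylation and small RNA binding (9) and other genes the study examined (6) lay at a shared region. Of the 33, 9 were in the gene table of Ox1 in the HN field, 7 in that of WYG7 in the NN field and 4 in both, so that 12 were in either table, the base over which 7.04% of genes had a shared region. At each of the 4, DMRs of the lists overlapped but missed the rule. OsMADS59 (LOC_Os06g23950), a MADS-box transcription factor gene, had an Ox1 hyper-DMR on chromosome 6 from 13995301 to 13995558 and a WYG7 hypo-DMR from 13995129 to 13995553 that shared 253 bp, 98.1% and 59.5% of their lengths, but a hyper-DMR of WYG7 in the HN field also overlapped them. OsWAKY46 (LOC_Os11g02480), as the study spells this transcription factor gene, came nearest to the limit: 118 bp of overlap was the whole of the Ox1 hypo-DMR and 47.8% of the WYG7 hyper-DMR. At OsWAKY54 (LOC_Os05g40080) the 64 bp overlap of an Ox1 hyper-DMR with a WYG7 hypo-DMR was 55.7% and 35.6% of their lengths. OsATL16 (LOC_Os01g41400), an amino acid transporter gene, was the only one with the same direction, hypo in both, and its longest overlap of 150 bp was 31.1% of the Ox1 DMR and all of the WYG7 DMR.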

How the data were processed

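The deposited values are positions in bp. After read filtering and trimming, the authors mapped with Bismark (version 0.9.0, per the labels), took IRGSP-1.0 as genome, and used SMART to call DMRs of LN against HN libraries within each line and field, under limits on coverage, number of cytosines, length, difference and p-value. The deposited lists give chromosome, start, end and direction of each DMR, and the deposited gene tables an interval and an MSU locus. Library depth was not used here.

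Positions were read from 1 with both ends included, which makes the shortest DMR 100 bp. DMRs within a list overlapped their neighbours by at most 4 bp. Overlaps, shares, Wilson 95% intervals and odds ratios with their 95% intervals (Woolf) were computed in Python 3.11.15 (pandas 2.3.3, numpy 2.4.6, scipy 1.17.1), and figures drawn in matplotlib 3.10.9. Overlap code was tested on simulated data, and bedtools 2.31.1 gave the same 1624 regions. The independent share is the product of the hyper shares plus the product of the hypo shares.

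The rule, the gene lists and the settings were chosen with earlier results of these data known. The genes named are those of the gene lists, those at the 5 longest regions of each direction class and the 10 with most shared regions. Naming genes by annotated symbol was not possible, because the gene table used here pairs no symbol with MSU loci, and base composition of the regions was not analysed here. The alternatives were other overlap limits, other exclusions, longer DMRs, merged neighbours and other gene assignments. Applying them to the excess over independence in all 6 pairs of lists was added after seeing the data.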

Additional observations from a re-analysis of the deposited data

Results flagged for a closer look

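At 489 shared regions the LN against HN difference was hyper in 1 comparison and hypo in the other, 321 of them hyper in Ox1 in the HN field and hypo in WYG7 in the NN field and 168 the reverse. They were picked out because the effects of parent seed had opposite signs. Each effect compares 1 library with 1 library, so the difference was not tested. Opposite directions were not in excess. The same direction was found in 69.9% of the 1624 regions, against 62.1% if directions were independent and 61.1% over all 3795 reciprocal pairs.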

How the results depend on the processing

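No paired analysis was possible because the lists hold no value per library that could be paired, and no test was made. The gap between the observed and the independent same-direction share stayed between 6.58 and 7.98 points over the 7 alternatives, which were applied to it after seeing the data. In the other 5 pairs of lists it ran from -5.90 to 3.63 points over the main rule and the alternatives. The odds ratio of the pair described here was less steady. Over the main rule and the alternatives it ran from 2.24, where only an overlap of 50% of both lengths excluded, to 6.75 with at least 90%. In the other 5 pairs it ran from 0.556 to 1.39. The alternatives reuse many of the same regions, and none drops the exclusion by other lists. Without that exclusion the gap was 6.73 points here and 5.06 points for WYG7 in the HN field with Ox1 in the NN field. The numbers moved with the rule. With at least 25% of both lengths there were 2770 regions, 66.8% of the same direction, 67.3% hyper in WYG7 and at 1765 genes. With 75% there were 607 regions, 73.1% of the same direction, 82.4% hyper in Ox1, 75.3% hyper in WYG7 and at 397 genes, and with 90% there were 198, with 83.3%, 85.9% and 85.4%, at 138 genes. When only an overlap of 50% of both lengths with another list excluded a region, 2617 were left, 64.5% of the same direction, 74.5% hyper in Ox1 and 65.0% in WYG7, at 1667 genes. When a DMR of another list within 200 bp also excluded, the hyper shares were 81.96% in Ox1 and 73.0% in WYG7. With DMRs of at least 200 bp alone there were 818 regions at 604 genes, 82.3% were hyper in Ox1 and 70.8% lay at a gene. Counting neighbours under 1000 bp apart once moved none of these results, and a gene overlap of 1 bp or genes of both tables alone, tried on the gene share and the number of genes, moved neither. The lists give no coverage, so regions missing from a list may have been too thinly covered to be called, and this was not tested.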
